A study of Mus musculus with 6 samples.

Results

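Amino acids enter and leave cells through carrier proteins grouped into solute carrier (Slc) families, and 57 genes of the families Slc1, Slc3, Slc6, Slc7, Slc36, Slc38 and Slc43 were examined here in mouse hybridomas. Members were taken by their symbol in the annotation of the array, with any probe counted and with the cystine-glutamate exchanger gene Slc7a11 left out, which gave 57 of 19057 named genes and 115 of 34885 named probes. The pattern also took in Slc7a6os, a neighbour of Slc7a6 that is not a transporter gene, and carriers whose main substrate is not an amino acid, such as those for dopamine (Slc6a3), serotonin (Slc6a4), noradrenaline (Slc6a2) and creatine (Slc6a8). Some members act on the lysosome and not at the cell surface. Slc7a5 was not analysed here.

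A hybridoma is a line that arises from the fusion of a lymphocyte and a tumour cell. Total RNA of hybridoma S2, labelled as producing IL-17, and of hybridoma DE3, labelled as not producing it, was hybridized to Illumina bead arrays, with 3 arrays for each. No treatment, time point or mouse strain is given in the labels, both lines were grown in the same serum-supplemented medium, and each group is a single clone. Whether the replicates came from separate cultures is not stated, and the p-values therefore reflect only how these samples varied, which can be technical variation. Mean signal lay between 505 and 559 on the non-producing arrays and between 399 and 482 on the producing arrays, and 38.0% to 39.4% against 36.9% to 37.4% of the probes were above background. Each group sat on its own run of neighbouring positions of 1 chip, so group and position on the chip cannot be told apart. Of 7 tested T cell markers, Cd3e, Cd3d, Cd3g, Cd247, Ptprc and Thy1 were above background on all 6 arrays and Cd4 on 4. Cd3d, Cd3g and Thy1 were lower in the producing hybridoma. The brightest Cd247 probe was higher there by 0.54 on the log2 scale (limma adjusted p = 0.018, and 0.0595 without non-producing array 1), while its other 2 probes, at 0.06 and -0.25, did not pass. None of 3 B cell markers with a probe was tested, and among 6 myeloid and 6 stromal markers only Lyz1 and Pdgfrb were. Lyz1 was above background on 3 non-producing and 0 producing arrays, with mean log2 levels of 5.59 and 4.53. Its bound was at least 1.43-fold lower, and its measured difference passed (limma adjusted p = 5.94e-05). Pdgfrb averaged 5.70 against 6.19 with overlapping groups, and its log2 difference of 0.49 passed (limma adjusted p = 0.0317). Leaving out any 1 of non-producing arrays 1 and 2 and of producing arrays 2 and 3 ended the Pdgfrb call (0.0821 to 0.097). The part of these marker genes in the members' differences was not tested. The collagens Col1a1, Col1a2 and Col3a1 and the myeloid receptor Csf1r were not above the filter. In bulk RNA, fewer cells that express a gene and less of its RNA per cell cannot be told apart.

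The families differ in how they move their cargo. Slc1, Slc6 and most Slc38 carriers draw amino acids in with sodium, Slc36 carriers use protons, and Slc43 carriers are facilitators. Slc7 holds the cationic amino acid transporters and the light chains of exchangers, and those light chains need a heavy chain of the Slc3 family to reach the surface. Lymphocytes are known to raise glutamine, leucine and arginine uptake when they are activated, and several of these genes are targets of ATF4, the transcription factor of the amino acid starvation response.

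A gene was tested if a probe was above background (detection p-value under 0.05) on at least 3 of the 6 arrays, and 28 of the 57 members (49.1%) met this, against 9395 of all 19057 named genes (49.3%). Levels below are normalized log2 signals of a gene's brightest tested probe, and differences are producing minus non-producing on that scale. Of the 28 tested members, 12 passed the threshold of 0.05 on the adjusted p (limma, Benjamini-Hochberg over all tested probes), 6 higher and 6 lower in the producing hybridoma. Over all tested genes, 36.7% passed, 18.1% higher and 18.6% lower, so the members' share of 42.9% lay near that of the whole array. The median difference of the tested members was 0.05 and that of all tested genes 0.000152. When arrays were brought to a common median and not quantile normalized, the median of all genes shifted to -0.23, and the members then split into 4 higher and 8 lower. The 3 arrays of one group did not overlap those of the other in 15 tested members (53.6%), against 51.3% of all tested genes.

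**Figure D1:**
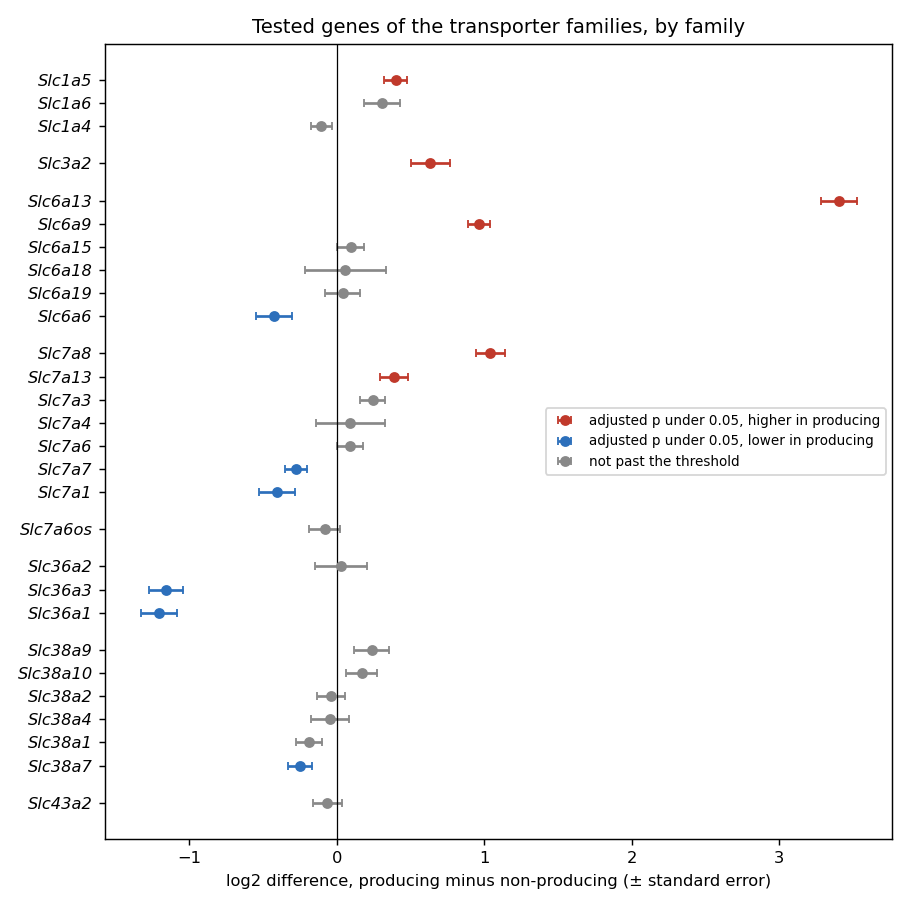
Log2 difference between the producing and the non-producing hybridoma for the 28 tested genes, grouped by family, with bars of 1 standard error. Slc6a13 stands at 3.40, Slc36a1 and Slc36a3 at -1.20 and -1.16, and 16 grey points did not pass the threshold.

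Slc6a13 differed most. It encodes GAT2, a transporter of GABA and taurine. Its only probe read 5.43, 5.68 and 5.84 on the non-producing arrays 1, 2 and 3 and 9.02, 8.95 and 9.20 on the producing arrays 1, 2 and 3. All 6 arrays were above background, and the groups were far apart compared with the spread inside them. The means were 5.65 ± 0.21 and 9.06 ± 0.13 (SD, n = 3), which is 10.6-fold higher in the producing hybridoma (log2 difference 3.40, standard error 0.12, limma adjusted p = 9.12e-07). Without background correction the difference was 2.60, and over all alternatives it ranged from 2.51 to 3.50. Slc6a12, the betaine and GABA transporter gene next to it on chromosome 6, was above background on no array.

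The other Slc6 carriers that passed were those of glycine and taurine. Slc6a9, which encodes the glycine transporter GlyT1, read 9.87, 9.78 and 9.86 on the non-producing and 10.78, 10.80 and 10.83 on the producing arrays. Every producing array was higher than every non-producing array, and the means of 9.84 ± 0.05 and 10.80 ± 0.03 (SD, n = 3) gave a 1.95-fold higher level in the producing hybridoma (log2 difference 0.97, standard error 0.07, limma adjusted p = 4.79e-05). Its other probe was not above the filter. Slc6a6, the taurine transporter gene, read 12.07, 11.72 and 11.68 on the non-producing and 11.40, 11.52 and 11.26 on the producing arrays. The groups did not overlap, and both of its probes fell, by 0.43 (limma adjusted p = 0.0298) and by 0.52 (0.0113). The call on the brightest probe of Slc6a6 was lost without non-producing array 1 (limma adjusted p = 0.064), producing array 1 (0.0668) or producing array 3 (0.0872).

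The remaining tested Slc6 genes encode carriers of neutral amino acids. Slc6a15 (0.09), which encodes a branched-chain amino acid and proline carrier best known from brain, and Slc6a19 (0.04), the B0AT1 carrier of gut and kidney, did not pass. Slc6a18, a kidney carrier, was the most variable member, at 4.62, 5.74 and 5.68 on the producing arrays against 5.48, 5.28 and 5.10 on the non-producing ones. Producing array 1 was the only one of the 6 on which it was not above background, and its difference of 0.06 did not pass (limma adjusted p = 0.895). Without that array it was at 0.42 and passed (limma adjusted p = 0.0425). The other 13 of 19 Slc6 genes did not meet the filter.

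In the Slc36 family of proton-coupled carriers, 2 of 3 genes were lower in the producing hybridoma. Slc36a1 encodes PAT1, a carrier of small neutral amino acids that also sits on lysosomes. Slc36a3 encodes a testis-enriched relative whose substrate is not settled, and Slc36a2 encodes PAT2, a carrier of glycine and proline. The 3 genes lie side by side on chromosome 11. The regions from 250 bases before to 50 bases after the annotated start, from RefSeq on GRCm38.p6, are shown for the 2 Slc36 genes that fell and for Slc6a13, the gene with the largest difference. Capitals mark the E-box CACGTG, a motif bound by factors of the Myc and TFE families, and lower case letters hold no match to it or to the element TGATGNAAN of ATF4 with C/EBP factors. Slc36a1 is at chr11:55204090-55204389 (plus strand), Slc36a3 at chr11:55151659-55151958 (minus strand) and Slc6a13, at the first of its 3 annotated starts, at chr6:121300038-121300337 (plus strand).
Slc36a1: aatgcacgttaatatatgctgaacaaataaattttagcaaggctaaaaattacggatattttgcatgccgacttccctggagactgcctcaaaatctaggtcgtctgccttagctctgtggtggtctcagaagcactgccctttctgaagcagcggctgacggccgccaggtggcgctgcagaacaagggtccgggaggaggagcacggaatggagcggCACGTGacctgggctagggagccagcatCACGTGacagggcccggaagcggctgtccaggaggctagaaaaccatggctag
Slc36a3: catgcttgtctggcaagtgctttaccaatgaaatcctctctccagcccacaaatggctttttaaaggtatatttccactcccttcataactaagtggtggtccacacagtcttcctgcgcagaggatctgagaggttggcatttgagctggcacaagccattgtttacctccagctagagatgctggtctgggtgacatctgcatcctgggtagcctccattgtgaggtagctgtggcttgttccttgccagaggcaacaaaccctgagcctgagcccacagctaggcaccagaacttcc
Slc6a13: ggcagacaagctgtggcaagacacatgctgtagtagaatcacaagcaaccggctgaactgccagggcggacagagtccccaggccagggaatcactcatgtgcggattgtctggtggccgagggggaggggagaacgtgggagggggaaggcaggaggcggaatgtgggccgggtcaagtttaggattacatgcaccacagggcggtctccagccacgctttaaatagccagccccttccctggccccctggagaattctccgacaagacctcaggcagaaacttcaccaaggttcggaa

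The Slc36a1 window holds 2 E-boxes, starting at positions -31 and -3 from the annotated start, and the other windows hold none. Across members, 41 of 57 matched a promoter entry, with 62 windows in all. The E-box was present on either strand in 8 of these windows (12.9%) and in 7.15% of all 32851 windows. The element TGATGNAAN was present in 4 member windows (6.45%), those of Slc1a4, Slc6a21 and Slc7a7, and in 3.95% of all windows. Windows of alternative starts can overlap, as those of Slc7a7 do. Both motifs were searched on both strands and their matches describe letters only.

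Slc36a1 read 6.12, 5.80 and 5.89 on the non-producing arrays and 4.70, 4.94 and 4.56 on the producing arrays, none of which was above background. The measured means were 5.94 ± 0.17 and 4.74 ± 0.19 (SD, n = 3). Because the producing group has only an upper limit, the level there was at least 1.81-fold lower. This bound compares the non-producing mean with the lowest detected signal of each producing array. The measured difference passed (limma adjusted p = 0.000225). Slc36a3 was above background on all 6 arrays, at 6.71, 6.48 and 6.47 in the non-producing and 5.61, 5.31 and 5.27 in the producing hybridoma. Its groups were clearly apart, with means of 6.55 ± 0.13 and 5.40 ± 0.19 (SD, n = 3), a 2.23-fold lower level (log2 difference -1.16, standard error 0.12, limma adjusted p = 0.000205). Slc36a2, which lies between them, read 5.10, 5.53 and 5.56 against 5.53, 5.09 and 5.67. Those groups overlapped and its difference of 0.03 did not pass (limma adjusted p = 0.913). Each of the 3 genes was read from a single probe. Without background correction Slc36a1 and Slc36a3 differed by -0.63 and -0.67 and still passed.

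**Figure D2:**
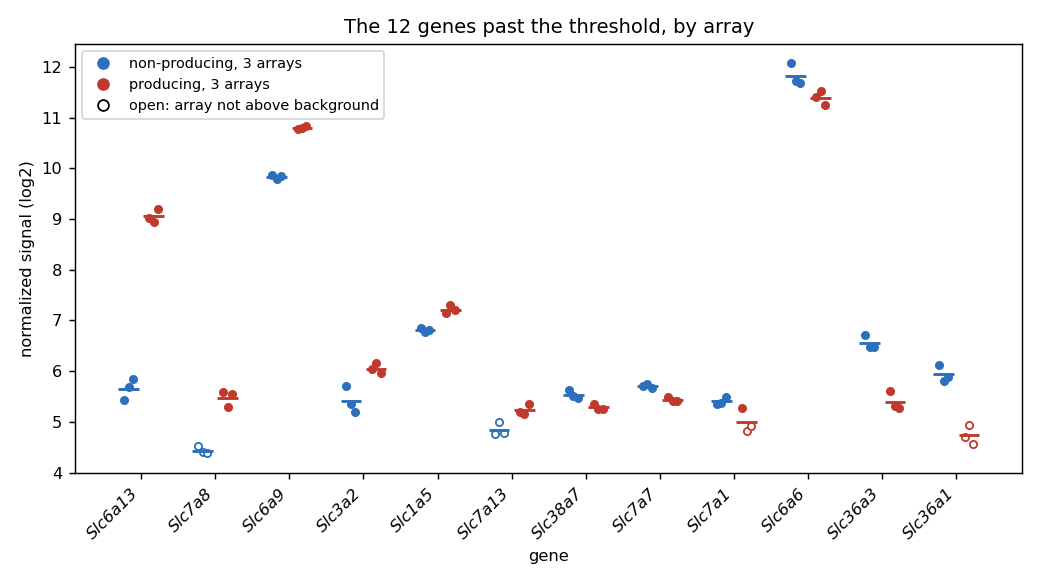
Normalized log2 signal on each of the 6 arrays for the 12 genes past the threshold, with a bar at each group's mean and open points for arrays not above background. The groups do not overlap for any of the 12, the gap is widest for Slc6a13, and Slc7a8, Slc7a13, Slc7a1 and Slc36a1 have open points.

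CD98, the heavy chain that escorts Slc7 light chains to the surface, is encoded by Slc3a2. It read 5.70, 5.35 and 5.20 on the non-producing and 6.04, 6.16 and 5.96 on the producing arrays. The groups did not overlap, and non-producing array 1 was the closest to the producing range. The means were 5.42 ± 0.26 and 6.05 ± 0.10 (SD, n = 3), 1.55-fold higher in the producing hybridoma (log2 difference 0.64, standard error 0.13, limma adjusted p = 0.00716). Slc3a2 lies on chromosome 19, whose 331 tested genes had a median difference of 0.31. With each chromosome's median removed, a setting added once the data had been seen, Slc3a2 was at 0.33 and missed the threshold (limma adjusted p = 0.0924).

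Among the light chains that pair with such a heavy chain, Slc7a8 was higher and Slc7a7 lower. Slc7a8 encodes LAT2, an exchanger of large and small neutral amino acids. It read 4.53, 4.40 and 4.38 on the non-producing arrays, none above background, and 5.58, 5.30 and 5.55 on the producing arrays, all above it. The measured means were 4.43 ± 0.08 and 5.48 ± 0.16 (SD, n = 3), and the level in the producing hybridoma was at least 1.38-fold higher. The measured log2 difference of 1.04 passed (limma adjusted p = 0.000165). It fell to 0.64 without background correction, where it still passed. The other Slc7a8 probe was not above the filter.

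Slc7a7 encodes y+LAT1, which exports cationic amino acids in exchange for neutral ones. Its brightest probe read 5.72, 5.75 and 5.67 on the non-producing and 5.49, 5.40 and 5.40 on the producing arrays. The groups did not overlap and the log2 difference was -0.28 (standard error 0.07, limma adjusted p = 0.0221). Its other probes, at 0.05 and 0.02, did not pass, and the mean over its 3 probes was at -0.07 with no call (limma adjusted p = 0.5). The Slc7a7 call was also lost without non-producing array 2 (limma adjusted p = 0.0724), producing array 2 (0.0654) or producing array 3 (0.0607), and with chromosome medians removed (0.119). In all, it was lost in 10 of the 16 alternatives. Slc7a6, the related y+LAT2 gene, was at 0.09 and did not pass.

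Slc7a13 encodes a carrier of aspartate and glutamate known from mouse kidney. It read 4.76, 4.99 and 4.79 on the non-producing arrays, none above background, and 5.20, 5.15 and 5.35 on the producing arrays, all above it. The measured means were 4.85 ± 0.13 and 5.24 ± 0.11 (SD, n = 3), and the level was at least 1.17-fold higher. The measured difference passed (limma adjusted p = 0.0155). Slc7a13 lies on chromosome 4, whose median difference was 0.27, and with chromosome medians removed it was at 0.12 with no call (limma adjusted p = 0.395). Its call was also lost without non-producing array 3 (limma adjusted p = 0.0551). The same held with arrays scaled to a common median (limma adjusted p = 0.0585) and with an intensity trend and robust prior (0.0553).

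Of the cationic amino acid transporters, Slc7a1, which encodes the arginine and lysine carrier CAT1, was lower. It read 5.36, 5.37 and 5.49 on the non-producing arrays, all above background. On the producing arrays it read 5.28, 4.82 and 4.92, with only array 1 above background. The groups did not overlap, but producing array 1 lay close to the non-producing range. The log2 difference of -0.40 (standard error 0.12, limma adjusted p = 0.0362) lost its call when any array other than producing array 1 was left out, with limma adjusted p-values from 0.067 to 0.107. In all, the Slc7a1 call was lost in 11 of the 15 alternatives that tested it. These include no background correction (limma adjusted p = 0.0545), the authors' processed values (0.0536) and chromosome medians removed (0.0556). Slc7a3, which encodes CAT3, read 10.67, 10.69 and 10.83 against 11.08, 10.92 and 10.92. Its groups did not overlap either, yet the difference of 0.24 did not pass (limma adjusted p = 0.0608). Slc7a4, a relative of the cationic carriers whose transport role is not settled, was at 0.09 and did not pass, and Slc7a6os, the non-transporter, was at -0.08. The remaining 6 of 13 Slc7 genes did not meet the filter.

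In the Slc1 family the glutamine carrier was higher. Slc1a5 encodes ASCT2, a sodium-dependent exchanger of glutamine and other neutral amino acids. It read 6.84, 6.77 and 6.82 on the non-producing and 7.14, 7.30 and 7.20 on the producing arrays. The groups did not overlap, with means of 6.81 ± 0.04 and 7.21 ± 0.08 (SD, n = 3), a 1.32-fold higher level (log2 difference 0.40, standard error 0.08, limma adjusted p = 0.0053). Of its other tested probes, 1 rose by 0.27 (0.036) and 1, at 0.36, did not pass (0.212). With the arrays scaled to a common median, Slc1a5 was at 0.13 and did not pass (limma adjusted p = 0.437). Slc1a4, which encodes the alanine, serine and cysteine carrier ASCT1, was at -0.10, and Slc1a6, a glutamate transporter best known from the cerebellum, at 0.31, and neither passed. Slc1a6 was at 0.41 and passed without producing array 2 (limma adjusted p = 0.0347), and at 0.19 without producing array 3. The glutamate transporter genes Slc1a1, Slc1a2, Slc1a3 and Slc1a7 did not meet the filter.

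The Slc38 family, sodium-coupled carriers of glutamine and other neutral amino acids, had 1 of 6 tested genes past the threshold. The brightest probe of Slc38a2, which encodes SNAT2, read 10.60, 10.49 and 10.46 on the non-producing and 10.62, 10.48 and 10.32 on the producing arrays. The groups overlapped and the difference of -0.04 did not pass (limma adjusted p = 0.798). Slc38a1, which encodes SNAT1, read 9.21, 9.15 and 9.23 against 8.87, 9.09 and 9.08. These groups did not overlap, but the difference of -0.19 did not pass (limma adjusted p = 0.136), while 1 of its 3 other probes fell by 0.43 (0.005) and 2 did not pass, at -0.05 and -0.21. Slc38a7, a glutamine carrier of the lysosome, read 5.62, 5.52 and 5.47 against 5.35, 5.25 and 5.26. The groups did not overlap and the log2 difference of -0.25 passed narrowly (standard error 0.08, limma adjusted p = 0.0438), a call lost when any 1 array was left out (0.0638 to 0.113). In all, the Slc38a7 call was lost in 12 of the 16 alternatives. Slc38a9, the lysosomal carrier that signals arginine to mTORC1, was at 0.24 (other tested probe -0.12), and neither passed. Without producing array 2 it was at 0.37 and passed (limma adjusted p = 0.0182). Slc38a10 was at 0.17 and did not pass, while its other tested probe rose by 0.35 (limma adjusted p = 0.0124), and Slc38a4 was at -0.05.

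Slc43a2, which encodes the branched-chain amino acid facilitator LAT4, was at -0.06 and 0.01 on its 2 probes, neither past the threshold. Slc43a3 stayed under the filter, since its brighter probe was above background on non-producing arrays 1 and 3 only, at 5.23 and 5.41 against 5.02 on non-producing array 2 and 4.81, 4.85 and 4.78 on the producing arrays. Of the 29 members that were not tested, 24 were above background on no array and Slc1a2, Slc1a7, Slc6a7 and Slc7a14 on 1. Those on no array were Slc1a1, Slc1a3, Slc38a3, Slc38a5, Slc38a8, Slc38a11, Slc43a1, Slc6a2, Slc6a3, Slc6a4, Slc6a5, Slc6a8, Slc6a11, Slc6a12, Slc6a14, Slc6a17, Slc6a20a, Slc6a20b, Slc6a21, Slc7a2, Slc7a9, Slc7a10, Slc7a12 and Slc7a15. They include the dopamine, serotonin, noradrenaline and creatine carriers, so none of the tested members is one of these. Not being above background bounds a level and does not show that a gene was silent.

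On the fitted values, 4 of the 28 tested members passed and differed by 2-fold or more (Slc6a13, Slc36a1, Slc36a3 and Slc7a8), or 14.3%, against 3.63% of all tested genes. For Slc36a1 and Slc7a8 the bounds were under 2-fold, and each met the filter only through the group in which it was higher. Among genes detected on all 6 arrays, 2 of 23 tested members passed at 2-fold or more, beside 227 of all genes tested there. Without background correction, Slc6a13 alone reached 2-fold, beside 168 of all tested genes. The calls on Slc6a13, Slc6a9 and Slc36a3 held in each of the 16 alternatives. Those on Slc36a1 and Slc7a8 held in the 15 that tested them, and detection on all 6 arrays left them untested. The other 7 calls were lost in at least 1 alternative. More than 1 probe was tested for 10 of the 28 members and for 3 of the 12 that passed.

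Where genes along a chromosome shift together, a gene's own difference can be read beside that of its neighbours, and the 6 named genes on either side of these loci were listed after the members' values were seen. Around the Slc36 genes, 6 of 12 neighbours were tested, and only Tnip1 passed, at -0.35. Around Slc6a13 and Slc6a12, 7 of 12 neighbours were tested. Pex26 (-0.43), Tuba8 (-0.44) and Usp18 (-0.41), the 3 next to Slc6a13 on one side, were lower, opposite to its rise, and 4 did not pass. Around Slc6a9 on chromosome 4, 9 of 12 neighbours were tested and 7 of them rose, St3gal3 furthest at 0.65. Across chromosome 4 as a whole, 274 of 580 tested genes (47.2%) were higher, beside 18.1% of all tested genes. With chromosome medians removed, Slc6a9 was at 0.69 (limma adjusted p = 0.000318), Slc6a13 at 3.41, Slc36a1 at -1.18 and Slc36a3 at -1.13. That fit takes out a whole chromosome's median and not a local shift, and the part of a local shift in the Slc6a9 difference was not tested.

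**Figure D3:**
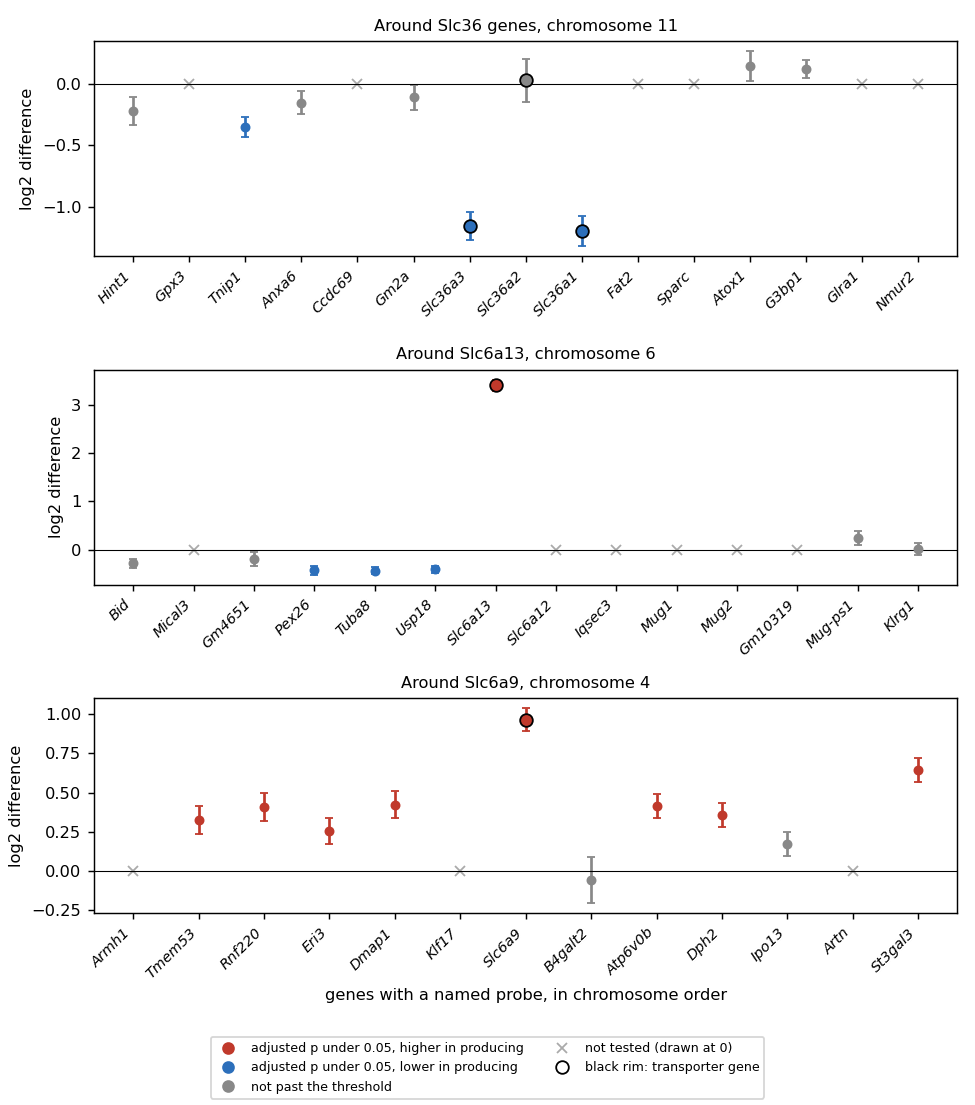
Log2 difference with bars of 1 standard error for genes in chromosome order around the Slc36 genes, Slc6a13 and Slc6a9, where crosses mark genes that were not tested. Slc36a3, Slc36a1 and Slc6a13 stand apart from their neighbours, while 7 of 9 tested neighbours of Slc6a9 are higher as well.

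Genes that act with these carriers were examined in 6 lists, to be read beside the 18.1% of all tested genes that were higher and the 18.6% that were lower. Among 8 tested partners and trafficking genes, 4 fell and Txnip rose (0.32, not past the threshold at 0.06 with arrays scaled to a common median). Sgk1, a kinase known to raise the surface level of several carriers, fell by 1.45, and Nedd4l, a ubiquitin ligase that promotes carrier internalization, fell by 0.97. Bsg, which encodes the chaperone basigin, exceeded background on every non-producing and on no producing array (at least 1.32-fold lower). Itgb1, which encodes an integrin chain that binds CD98, was at -0.41, with overlapping groups, an other probe that did not pass (-0.45), and leaving out array 1 or array 2 of either group ended its call (limma adjusted p 0.103 to 0.118). Sgk3 (0.22) and Cd44 (-0.26) did not pass on their brightest probes, while another probe of each fell (-0.59 and -0.37). A further Cd44 probe, at -0.07, did not pass. The list had a median of -0.33.

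Of 8 tested carriers of other families, 3 rose, 1 fell and 4 did not pass, and the median was 0.20. Slc15a1, the peptide transporter PEPT1, fell by 1.45 on its brightest probe and was at -0.27 on the other, which did not pass. Slc17a8, a vesicular glutamate transporter, was above background in the producing hybridoma alone (at least 1.73-fold higher). Slc66a1, a lysosomal exporter of cationic amino acids, rose by 0.42 but lies on chromosome 4. With chromosome medians removed Slc66a1 was at 0.15 (limma adjusted p = 0.26), and with arrays scaled to a common median its call was also lost (0.276). Ctns, the lysosomal cystine exporter, rose by 0.25 on its brightest probe and by 0.33 on the other, and its call was lost without any 1 of the 6 arrays (limma adjusted p 0.0542 to 0.122). With arrays scaled to a common median, Ctns was at -0.026.

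Genes of the response to amino acid shortage moved in 1 direction where they passed. Of 13 tested genes of the GCN2 and ATF4 list, 6 were higher, 0 were lower and the other 7 missed the threshold (median 0.15). Stc2, a secreted glycoprotein (1.63), the transcription factor gene Atf5 (0.91), Ddit4, which restrains mTORC1 (0.62), and Trib3, which encodes a pseudokinase (0.47), led the list. The other probes of Trib3, at 0.42 and 0.31, did not pass. Atf4 itself was at 0.12, Ddit3 at 0.15, Gcn1 at 0.10 and Chac1 at 0.06, and none of these passed. Impact (-0.28), Cebpg (-0.20) and Cebpb (-0.05) lay below 0 and did not pass either. The other probes of Atf4 (-0.09) and Cebpg (0.40) had the opposite sign and did not pass. With arrays scaled to a common median Trib3 was at 0.18 with no call (limma adjusted p = 0.308).

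The mTORC1 amino acid sensing list was mixed, with 6 of 31 tested genes higher, 4 lower and 21 not past the threshold, and a median of 0.01. Among those not past it, some had another probe that passed. These were Rptor (-0.69), Lamtor2 (-0.62 and -0.34), Flcn (-0.34), Castor2 (0.60) and Wdr59 (0.31). For Castor2 and Wdr59 the brightest probe had the opposite sign (-0.04 and -0.14). Mlst8, a subunit of the complex (0.91, and 0.93 and 1.00 on its other probes), and the stress-induced sestrin gene Sesn1 (0.71) rose, while Sesn3 fell by 0.79. Wdr24, a subunit of the GATOR2 complex, rose by 0.61. Mlst8 and Wdr24 lie on chromosome 17, whose median was 0.30. With chromosome medians removed Mlst8 was at 0.62 and passed and Wdr24 was at 0.32 and did not (limma adjusted p = 0.0749).

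Of 20 tested enzymes of amino acid metabolism, 6 were higher, 3 were lower and the other 11 missed the threshold (median 0.11). Asns (0.38) is 1 of these 6 and also 1 of the 6 higher genes of the GCN2 and ATF4 list. Its other probes were at 0.30, which passed, and 0.13, which did not. Totals over all the lists count Asns once. Shmt2, the mitochondrial serine hydroxymethyltransferase (0.73), Gpt2, a glutamate-pyruvate transaminase (0.61), and Aldh18a1, which starts proline synthesis (0.45), rose. Prodh, which starts proline breakdown, fell by 0.73. Gpt2 was at 0.33 with arrays scaled to a common median and did not pass (limma adjusted p = 0.0767). Aldh18a1, on chromosome 19, was at 0.15 with chromosome medians removed (limma adjusted p = 0.37). Its call was also lost with arrays scaled to a common median (limma adjusted p = 0.311) and without non-producing array 1 (0.055).

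Substrates of the Slc6 carriers are made and broken down by a further list, of which 7 genes were tested and 8 with a probe were not above the filter. The GABA-forming enzymes Gad1 and Gad2 and the GABA receptor subunit genes Gabbr1 and Gabbr2 were among the latter. Aldh5a1, which completes GABA breakdown, was above background in the non-producing hybridoma alone (a fall of at least 2.05-fold), and Abat, the GABA transaminase gene, was at -0.01 and did not pass. Ckb, the brain-type creatine kinase gene, rose by 1.34, Gamt, which completes creatine synthesis, by 0.87 and Csad, an enzyme of taurine synthesis, by 0.38. The other Csad probe, at 0.39, did not pass, and with arrays scaled to a common median Csad was at 0.10 with no call (limma adjusted p = 0.56). The list had a median of 0.20.

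**Figure D4:**
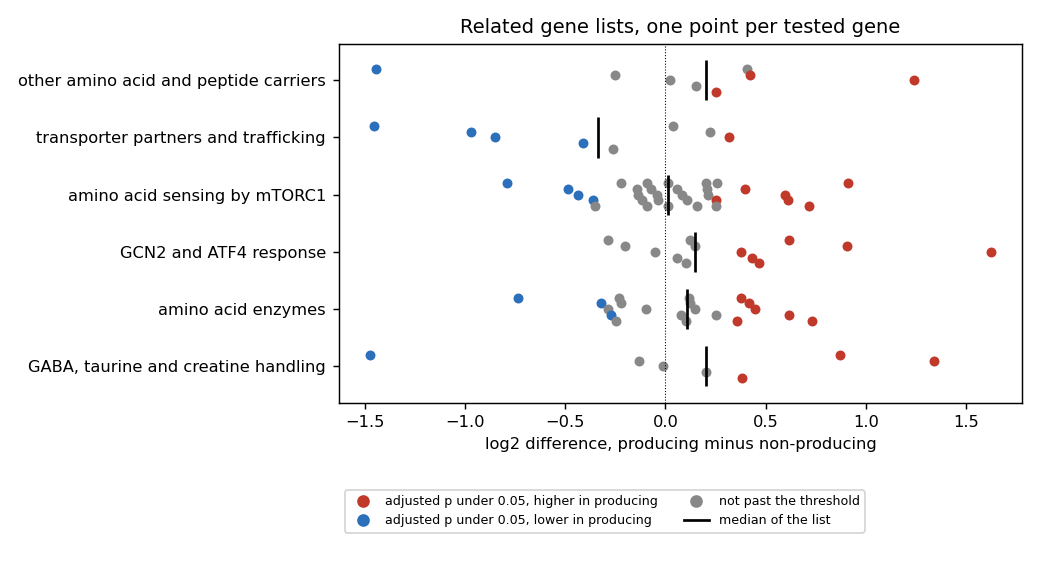
Log2 difference of each tested gene in the 6 related lists, with a bar at each list's median. Medians lie between -0.33 for partners and trafficking genes and 0.20, and the GCN2 and ATF4 list has 6 red and 0 blue points.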

How the data were processed

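The authors deposited a non-normalized table of average bead signal intensity per probe, on a linear scale, with a detection score beside each value. Per the file headers this score is a detection p-value, but it rises with signal, so the deposited fraction was read as 1 minus the p-value. A second deposited table holds the authors' quantile normalized intensity. The scanner software is not given in the sources used here.

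Signals of 45281 probes went through neqc of limma 3.58.1 (R 4.3.3), which inferred negative controls from the detection columns, corrected background, quantile normalized and returned log2 values with an offset of 16. As the lowest signal was 35.5, signals were read as not background-subtracted. The 17445 probes detected on at least 3 arrays were fitted with lmFit and eBayes (3 arrays against 3, two-sided, no covariate), with Benjamini-Hochberg adjustment over all of these probes. The procedure was tested on simulated data. The median SD between arrays of a group was 0.12. A fold against a group with no array above background is a bound, set against each array's lowest detected signal. Gene names came from the platform annotation, chromosomes from a RefSeq table of GRCm38.p6.

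The members and the lists were chosen with earlier results of these data known. Every member is named; of each related list the genes named are those that passed with the largest changes (at most 4), and those beyond that, such as Txnip, Atf4, Ddit3 and Abat, as well as the neighbouring genes, were picked after their values were seen.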

Additional observations from a re-analysis of the deposited data

How the results depend on the processing

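The count of 6 members higher stayed within 1.5 times of itself in all alternatives (4 to 8), while the count of 6 members lower was 3 with an offset of 50 and no negative controls, without background correction, with the authors' processed values, with an intensity trend and robust prior, and with chromosome medians removed, the last chosen after seeing the data. Leaving out 1 array gave 2 to 4 members lower and 5 to 8 higher. Scaling to a common median gave a member median of -0.13 against -0.23 for all genes, 473 genes higher and 3310 lower in all, and 10 genes of the related lists higher and 28 lower against 24 and 13; the cause was not tested. The reversed value was that of Ctns, -0.026 there. Differences of dim genes shrank without background correction, as those of Slc36a1, Slc36a3 and Slc7a8 did. That of Slc6a13, dim in the non-producing hybridoma alone, shrank as well. Slc7a3, not past the threshold, passed in 6 alternatives. With the replicate number as a block, 6 members were higher and 4 lower (1508 and 1511 of all genes against 1703 and 1745), and Slc38a7 and Slc7a7 lost their calls. Same-numbered arrays did not deviate together (correlations -0.04, -0.16 and 0.09), and not every array correlated best with its own number, so they share only a number. Signal near background limits Slc36a1, Slc7a8, Slc7a13 and Slc7a1, which had arrays not above background. The lowest detected log2 signal of an array lay between 4.97 and 5.10. Other called members were above background but not far from it on some arrays. These were Slc36a3 on producing arrays 2 and 3 (5.31 and 5.27) and Slc3a2 on non-producing arrays 2 and 3 (5.35 and 5.20). Slc6a13 on non-producing array 1 (5.43) and Slc38a7 on non-producing array 3 (5.47) belong here too. Slc38a7 (5.25 to 5.35) and Slc7a7 (5.40 to 5.49) were so on the producing arrays.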
